A study of Mus musculus with 16 samples.

Results

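Epiblast stem cells (EpiSC) were compared with mouse embryonic stem cells (ES cells) of strain 129 grown in the condition labelled mESM, outside the non-obese diabetic (NOD) background. The members are the 2 arrays titled EpiSC, at passages 12 and 20, and the 2 arrays titled 129 ES (mESM), both at passage 8, chosen by title. They are 4 of the 16 one-colour Agilent arrays of the series. EpiSC carry the strain label non-NOD without a named strain. For the 4 compared arrays the labels list no genotype change and no agent, and the meaning of mESM and of its counterpart epiESM is not given in the sources used here. A single array of 129 ES cells labelled epiESM, also at passage 8, serves as a further control. A primed against naive contrast in NOD lines comes from 6 NOD EpiSC-like arrays (4 of an ES line, 2 of an iPS line) and 3 NOD ES arrays. The NOD ES titles differ from each other and carry codes, with letters such as K, KP and CH, that the 129 ES titles lack. Strain and what these codes stand for cannot be told apart where the 2 contrasts are compared. EpiSC and 129 ES each appear under 1 line name, so the spread among EpiSC lines or among 129 ES lines is not measured. The spread behind the p-values is pooled from arrays within the groups of the whole series, among them the differently titled NOD ES arrays. The mESM arrays share 1 source label and may be 1 culture.

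The cells stand for contrasting states of pluripotency. ES cells resemble the epiblast of the blastocyst, depend on leukaemia inhibitory factor (LIF) and are called naive, whereas EpiSC resemble the epiblast after implantation, depend on activin and fibroblast growth factor (FGF), and are called primed. Primed cells are known to keep the factors Oct4 (Pou5f1) and Sox2, to lose naive factors such as Rex1 (Zfp42) and Esrrb, and to express Fgf5, Otx2 and genes of the primitive streak at a low level.

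Preparation differed between the groups. Per the labels' protocol, ES cells were freed of mouse embryonic fibroblasts (MEF), the feeder cells, by plating on gelatin, while EpiSC colonies were separated by hand. In bulk RNA, fewer cells of a type and less RNA per cell cannot be told apart. The EpiSC arrays lay on slides 1 and 3, both mESM arrays on slide 5 and the epiESM array on slide 4, so no slide held both compared groups. The main fit does not adjust for slide, so any slide effect is part of its differences. A fit with slide as a fixed block estimates slide effects only through arrays of other groups. Levels below are log2 of the spot signal minus the array's 75th percentile, so that 0 is that percentile, and EpiSC levels are given for passage 12 and then passage 20. A difference is the EpiSC mean minus the mESM mean on that log2 scale, with the standard error (SE) of the limma fit, and a gene is called changed where its p, adjusted by Benjamini-Hochberg over all genes, is under 0.05.

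The 129 ES cultures differed from each other in transcripts of the Y chromosome. Eif2s3y, a Y-linked translation factor gene, read 1.74 and 1.87 on the EpiSC arrays and -6.67 and -6.84 on the mESM arrays, where it was not well above background. On the epiESM array it read 2.60. Because of this mismatch, values of the epiESM array are given for many genes and lists below. The spread of log2 differences between pairs of arrays (SD over genes well above background on both) was 0.42 for the EpiSC passages and 0.20 for the mESM pair, against 1.34 to 1.36 between an EpiSC and an mESM array, 1.21 to 1.22 between an EpiSC and the epiESM array and 1.00 between an mESM and the epiESM array.

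Of 23161 genes tested, 5707 (24.6%) differed between EpiSC and mESM ES cells, 2771 (12%) higher and 2936 (12.7%) lower in EpiSC. These shares of all genes are the base beside which the counts of each list below stand. Of the 5707 genes, 1419 were higher and 1089 lower by at least 4-fold. The median difference of all genes was -0.34, and with the normexp background correction it was 0.03 and the split changed to 993 higher and 551 lower. The 12 genes that rose most joined embryonic patterning, matrix and neural genes. They were Cer1, a secreted antagonist of Nodal and BMP, Sox9, Fgf5, Fabp7, a lipid carrier of radial glia, Mest, Mmp3, Igfbp5, Eif2s3y, Postn, Cxcl1, Chgb and Aqp1. The 12 that fell most were Zfp42, Dppa5a, Dppa4, Ooep, Esrrb, Cyct, Rbmxl2, Khdc3, Stra8, Tdh, Pramel13 and Triml1, many of them known from the early embryo or the germ line. For 350 of the genes that rose, no probe was well above background on an mESM array, and for 257 of those that fell none was on an EpiSC array, so their folds are lower bounds.

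**Figure D1:**
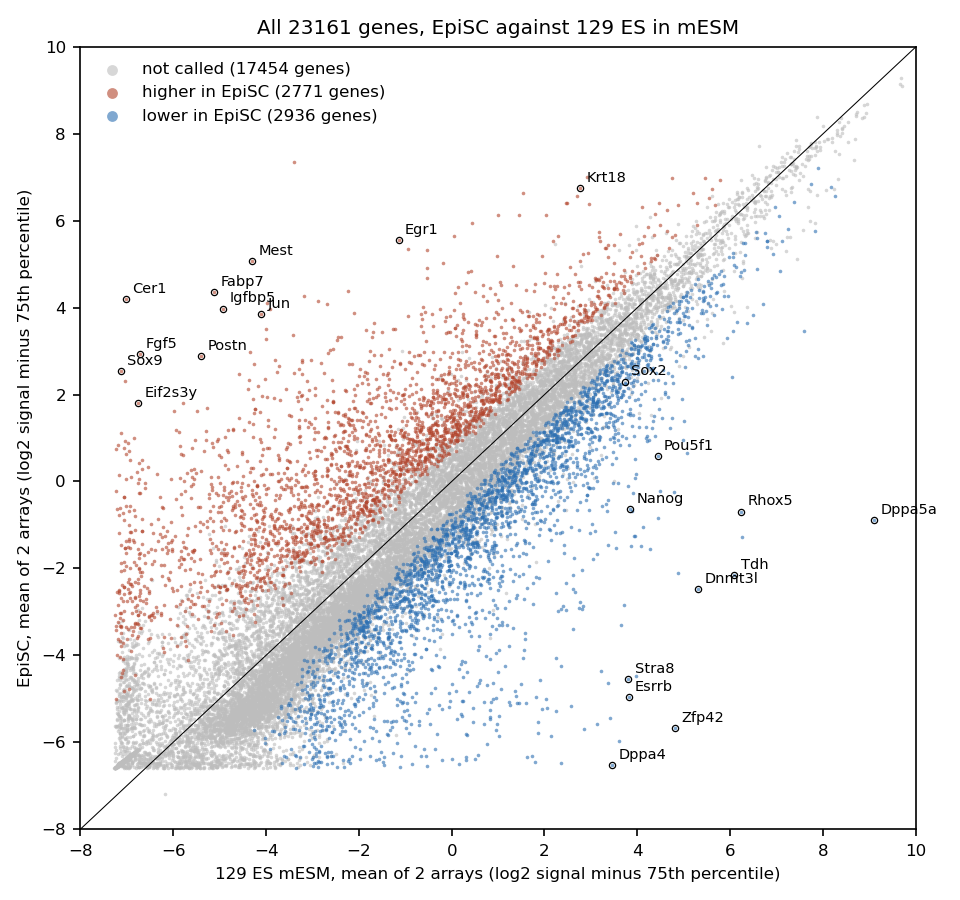
Each point is 1 of 23161 genes, placed by its mean level on the 2 mESM arrays (x axis) and the 2 EpiSC arrays (y axis), both in log2 signal minus the array's 75th percentile, with the line of equal levels. The 2771 genes called higher in EpiSC lie above the line in red and the 2936 called lower below it in blue, and the flat lower edges are spots at the floor of the scanner software.

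The spread behind these calls came from all 16 arrays, and arrays outside the comparison set much of it. Without the arrays labelled NOD ES replicate 1 and EpiSC iPS replicate 2, which stand apart in the share of spots above background (26.3% and 40.5%), 4831 genes were higher and 5789 lower. With slide as a fixed block, 989 were higher (4.27%) and 1046 lower (4.52%). Leaving out either mESM array left 2817 or 2809 calls, and leaving out EpiSC passage 12 or passage 20 left 3222 or 3054. Of the 270 called genes named here, 77 lost their call without at least 1 of the 4 arrays and 45 whichever was left out. With slide as a fixed block 149 of the 270 kept their call. Genes that lost their call without an array are not always named again for the slide block, where many of them also lost it. Levels are those of a gene's brightest probe. The mean over all probes kept 247 of the 270 calls and moved 45 of these by more than 1.5 times. Not all of the 45 are marked again below. Among those that are not, the mean over probes was 2.36 for Cdh13, 2.06 for Efna5, 2.32 for Ctnna2, 3.17 for Hmga2, 1.40 for Igfbp3, 1.60 for Fgf8 and 1.96 for Btg2.

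The naive programme was the group with the largest share of falls. Of 20 naive ES markers tested, 16 fell and none rose, against 12.7% of all genes called lower. Their median difference was -4.64, or -4.09 with genes below background at their bound, against -0.34 for all genes. Against the epiESM array 13 of the 20 were lower and none higher, where 7.52% of all genes were lower. Zfp42, a zinc finger gene known as Rex1, read -4.32 and -7.03 on the EpiSC arrays and 4.80 and 4.82 on the mESM arrays. It was at least 539-fold lower in EpiSC (adjusted p = 4.27e-05), with neither EpiSC array well above background. Esrrb, an orphan nuclear receptor of naive cells, read -5.46 and -4.48 on the EpiSC arrays and 3.82 and 3.80 on the mESM arrays. Both EpiSC arrays were far below both mESM arrays, with a difference of -8.78 ± 1.07 and adjusted p = 0.00019. Tdh, threonine dehydrogenase, on whose glycine mouse ES cells depend, read -2.10 and -2.21 on the EpiSC arrays and 6.09 and 6.09 on the mESM arrays. It fell 304-fold (difference -8.25 ± 0.50, adjusted p = 1.71e-06). Dppa5a, an RNA-binding gene of the early embryo, read -0.95 and -0.84 on the EpiSC arrays and 9.11 and 9.10 on the mESM arrays, and its difference of -10.00 ± 0.23 had adjusted p = 2.14e-09. Tfcp2l1, Nr0b1, Fbxo15, Dppa3, Ooep, Pecam1, Nr5a2, Tcl1, Jam2, Zfp57, Tbx3 and Gbx2 also fell, Nr0b1, also known as Dax1, at least 107-fold, Fbxo15 by a difference of -5.83 and Gbx2, at the other end, of -3.61. Leaving out 1 of the 4 arrays ended the calls of Tfcp2l1, Zfp57 and Tbx3 (highest adjusted p from 0.0648 to 0.0837). In the fit with slide as a fixed block the calls of Tcl1 and Jam2 were lost (adjusted p from 0.0769 to 0.127). Numbers higher and lower with slide as a fixed block were none and 11 for the 20 naive ES markers. The mean over probes gave smaller differences for Esrrb (-5.83).

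The 3 Kruppel-like factors of naive cells and Spp1 did not pass the test. Klf4 read 5.50 and 5.62 on the EpiSC arrays and 5.77 and 5.76 on the mESM arrays, a difference of -0.21 ± 0.81 (adjusted p = 0.863). Klf2 differed by -0.94 ± 0.44 (adjusted p = 0.146) and Klf5 by -1.05 ± 0.79 (adjusted p = 0.357). With the mean over probes Klf2 passed the test (-1.16, adjusted p = 0.0298). It also passed with only the 4 arrays compared (adjusted p = 0.0142), a setting in which 13834 of 23161 genes did. Klf2 and Klf4 were well above background on both EpiSC arrays, where Zfp42 and Nr0b1 were not. In the wider Kruppel-like family of 17 genes, 4 fell and 2 rose. Klf15, Klf8, Klf3 and Klf9 fell, with differences from -3.91 to -1.76, while Klf6 rose by 4.68 ± 0.27 and Klf7 by 2.53 ± 0.29. Without 1 or more of the 4 arrays, taken singly, the calls of Klf15, Klf8 and Klf9 were lost (highest adjusted p from 0.0645 to 0.0954). Fitted with slide fixed, the numbers higher and lower were 2 and 1 for the 17 Kruppel-like factors.

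Core pluripotency factors were lower too, and this included Oct4. Pou5f1, which EpiSC are known to keep, read 0.89 and 0.27 on the EpiSC arrays and 4.45 and 4.43 on the mESM arrays. The EpiSC level stayed above the 75th percentile of the arrays but was 14.5-fold below that of mESM (difference -3.86 ± 0.79, adjusted p = 0.00473), and epiESM read 3.50. Sox2, its partner on DNA, read 2.22 and 2.38 on the EpiSC arrays and 3.76 and 3.71 on the mESM arrays, a difference of -1.44 ± 0.69 that did not pass the test (adjusted p = 0.153). Nanog read -0.79 and -0.48 on the EpiSC arrays and 3.90 and 3.80 on the mESM arrays, and its difference was -4.49 ± 1.02 (adjusted p = 0.00799). In all, 8 of 13 core genes fell and none rose, and against epiESM 5 were lower. Dppa4, a chromatin gene of pluripotent cells, was at least 212-fold lower, Tdgf1, the Nodal co-receptor Cripto, changed by -5.18 ± 0.66, Utf1 by -4.08 ± 0.56, Dppa2 by -3.20 ± 0.38, Zscan10 by -2.61 ± 0.54 and Trim28 by -1.29 ± 0.35. Foxd3, Sall4, Lin28a and Zfp281 differed by -1.04, -0.78, -0.50 and -0.06 and did not pass. The low Pou5f1 level goes against the usual description of EpiSC, while other traits of that description, loss of naive markers and gain of Fgf5, were present. The calls of Nanog and Trim28 did not hold when single arrays of the 4 were left out (highest adjusted p from 0.0523 to 0.124). The call of Pou5f1 was lost with slide as a fixed block (adjusted p = 0.141). Rises and falls with slide fixed numbered none and 5 for the 13 core genes.

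**Figure D2:**
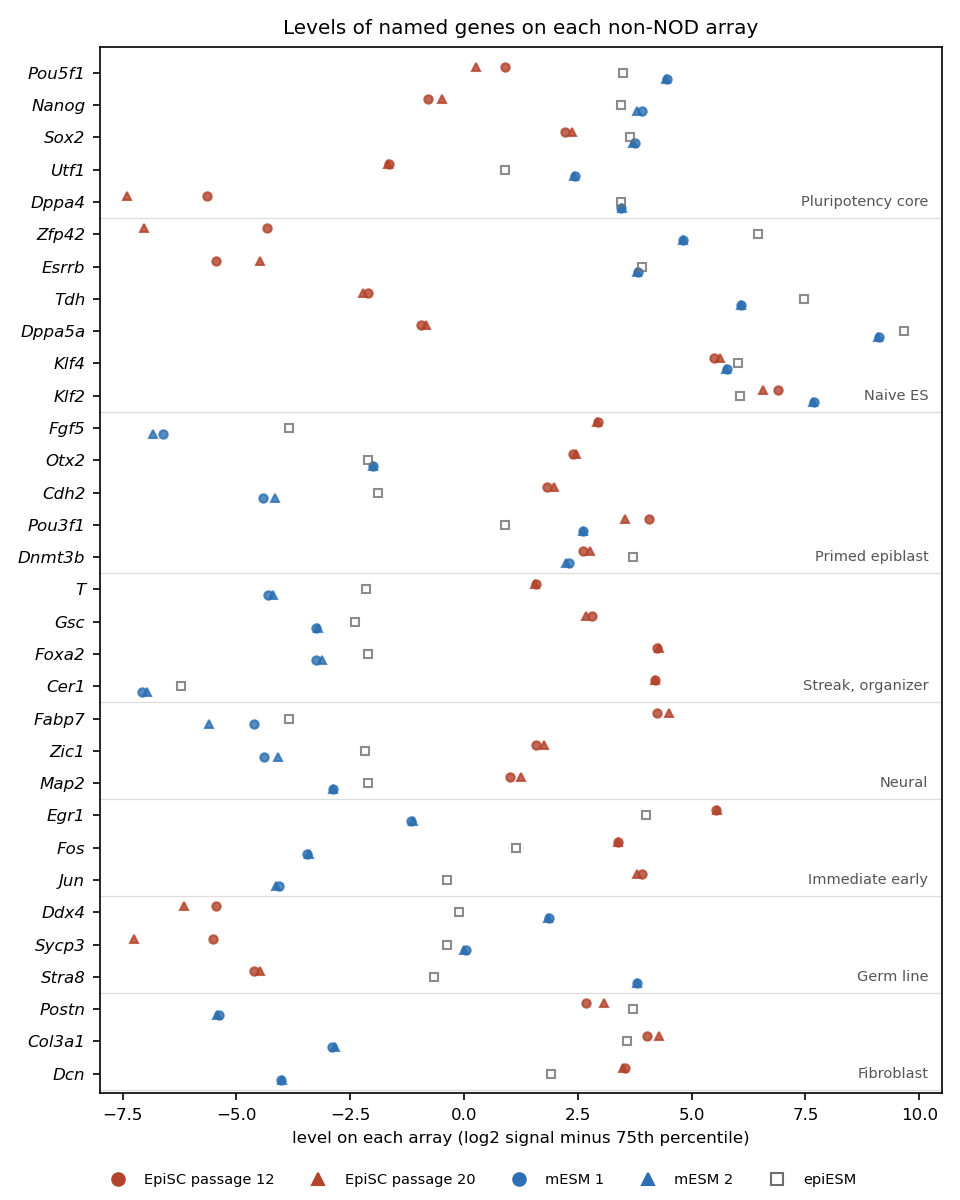
Levels of 32 genes (rows, in 8 groups) on the 2 EpiSC, 2 mESM and 1 epiESM arrays, in log2 signal minus the array's 75th percentile. Replicates of a group lie close together for most genes, Klf4 reads close in EpiSC and mESM, and the epiESM square lies with mESM for the naive genes and with EpiSC for the fibroblast genes.

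Nanog lies in a run of 5 neighbouring tested genes that all fell. In the RefSeq order these were Apobec1, Gdf3, Dppa3, Nanog and Slc2a3, a region known for genes active in ES cells. Gdf3, a TGF-beta family ligand, read -2.43 and -2.52 on the EpiSC arrays and 2.62 and 2.62 on the mESM arrays, a difference of -5.10 ± 0.62. Slc2a3, a glucose transporter, differed by -1.57 ± 0.43 and Dppa3, also called Stella, was at least 23.9-fold lower. Apobec1, chosen after its values were seen, differed by -2.07 ± 0.38. Runs of at least 5 neighbours called in 1 direction numbered 6 in all, of which 4 were lower and 2 higher. Fits without 1 of the 4 arrays ended the call of Slc2a3 (highest adjusted p = 0.102). A fixed slide block ended the calls of Nanog and Apobec1 (adjusted p from 0.0536 to 0.121). The Nanog promoter is shown because it holds, in capitals, the joined OCT-SOX site of this gene, 74 to 64 bases before the start. RefSeq (GRCm38.p6) places these 200 bases before the start at chr6:122707289-122707488, + strand.
Nanog: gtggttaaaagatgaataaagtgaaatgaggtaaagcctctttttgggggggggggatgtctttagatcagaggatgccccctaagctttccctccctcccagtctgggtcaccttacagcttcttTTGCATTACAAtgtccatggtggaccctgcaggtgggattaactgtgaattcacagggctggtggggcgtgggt

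The joined OCT-SOX motif, searched with 1 free base, was added after the data were seen and occurs, on either strand, in 8 of 14131 promoters (0.0566%). The octamer ATTTGCAT, which shares the letters TTGCAT with it, occurs in 1.57% of all promoters and in 1.40% of those of genes that fell. A match describes letters in a window of 300 bases and says nothing on binding.

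Markers of the primed epiblast rose in part. Of 15 tested, 7 rose and 1 fell, with a median difference of 1.64. Fgf5, the FGF of the epiblast after implantation, read 2.95 and 2.92 on the EpiSC arrays and -6.61 and -6.83 on the mESM arrays. It was at least 236-fold higher in EpiSC (adjusted p = 1.31e-07), with no mESM array well above background, and epiESM read -3.85. Otx2, a homeobox gene of the primed epiblast and forebrain, read 2.40 and 2.47 on the EpiSC arrays and -2.00 and -2.01 on the mESM arrays. Its difference was 4.43 ± 0.61 (adjusted p = 0.000413) and epiESM, at -2.10, lay with mESM. Cdh2, N-cadherin, read 1.83 and 1.99 on the EpiSC arrays and -4.42 and -4.16 on the mESM arrays, a difference of 6.20 ± 0.74. Sox4 rose by 3.98 ± 0.66, Car14 by 3.33 ± 0.23, Sox11 by 2.88 ± 0.34 and Pou3f1, the factor Oct6, by 1.19 ± 0.32. When single arrays were left out, Pou3f1 lost its call (highest adjusted p = 0.145). Under the fixed slide block Sox4 was not called (adjusted p = 0.116). Fixing slide left, as numbers higher and lower, 6 and none for the 15 primed epiblast markers. Averaged over probes, the difference was smaller for Cdh2 (3.42).

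Other textbook primed markers did not move that way. Nodal, the TGF-beta family ligand that maintains the epiblast, read 1.63 and 1.51 on the EpiSC arrays and 3.42 and 3.40 on the mESM arrays, and fell by 1.84 on the log2 scale (adjusted p = 0.0118). Dnmt3b, a de novo DNA methyltransferase of the epiblast, read 2.61 and 2.76 on the EpiSC arrays and 2.30 and 2.25 on the mESM arrays, a difference of 0.41 ± 0.36 (adjusted p = 0.424), and epiESM read 3.71. Lef1, Fgf15, Zic2, Cldn6, Sox3 and Zic5 also missed the threshold, with differences from 2.25 to -1.01. Nodal lost its call without at least 1 of the 4 arrays (highest adjusted p = 0.0711).

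Genes of the primitive streak and the organizer rose, on both passages alike. Of 20 tested, 9 rose and 2 fell. Cer1 read 4.20 and 4.20 on the EpiSC arrays and -7.07 and -6.97 on the mESM arrays and was at least 566-fold higher (adjusted p = 7.16e-05). Foxa2, a forkhead gene of anterior streak and endoderm, read 4.24 and 4.29 on the EpiSC arrays and -3.24 and -3.13 on the mESM arrays, a difference of 7.45 ± 0.51. Gsc, goosecoid of the organizer, differed by 5.97 ± 0.44, T (brachyury), the nascent mesoderm factor, by 5.82 ± 0.41, Lhx1 by 4.18 ± 0.35 and Sox17, of endoderm, by 3.81 ± 0.91. Against the epiESM array 8 of the 20 were higher and none lower, where 6.29% of all genes were higher and 7.52% lower. That array has no replicate, and its spread is taken to be that of the other groups. Leaving out 1 of the 4 arrays ended the call of Sox17 (highest adjusted p = 0.0629). The numbers higher and lower with slide fixed were 7 and none for the 20 streak genes.

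Of 22 visceral and parietal endoderm genes, 5 were higher and 3 lower, where 12% and 12.7% of all genes were. The share that fell was thus close to that of all genes. The median difference of the list was -0.22, or -0.04 with genes at their bound, and 0.79 against epiESM. Foxa1 was at least 47.9-fold and Fgb, fibrinogen beta, at least 27.9-fold higher, and Thbd and Pth1r differed by 3.89 and 3.43. Apoe fell by 2.65 and Lama1 by 3.04 on the log2 scale. Their summed level was 98.0 and 90.2 on the EpiSC arrays and 141 and 141 on mESM, in units of the 75th percentile. Trophectoderm genes split as well, 4 of 14 higher and 4 lower: the simple keratins Krt8 and Krt18 rose by 4.08 ± 0.75 and 3.99 ± 0.83 and Gata3 by 3.97 ± 0.44, while Tfap2c and Tead4, at differences of -3.00 and -2.09, fell and Esx1 was at least 16.7-fold lower. The epiESM array read 5.74 for Krt8 and 5.88 for Krt18, close to EpiSC. Without 1 or more of the 4 arrays, taken singly, the calls of Pth1r and Tead4 were lost (highest adjusted p from 0.0983 to 0.14). Krt8, Krt18 and Gata3 were not called with slide as a fixed block (adjusted p from 0.0536 to 0.18). Numbers higher and lower with slide as a fixed block were none and 2 for the 14 trophectoderm genes.

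Early neural genes rose in 11 of 16 cases and none fell, with a median of 2.75. Fabp7 read 4.23 and 4.49 on the EpiSC arrays and -4.62 and -5.61 on the mESM arrays, a difference of 9.47 ± 0.52 (adjusted p = 8.93e-07). Zic1 differed by 5.90 ± 0.57, Map2, a microtubule protein of neurons, by 4.01 ± 0.56, and Rax by 3.24 ± 0.71, while Dcx and Pax3 were at least 20.6-fold and 8.27-fold higher. Their summed level was 53.6 and 55.7 on EpiSC, 8.93 on epiESM and 7.90 and 7.89 on mESM, so that both ES conditions lay together and below EpiSC. Of 30 genes of synapse and axon, 15 rose and 1 fell. Chgb, a granule protein of neurosecretory cells, read 4.08 and 4.13 on the EpiSC arrays and -3.98 and -3.96 on the mESM arrays, with epiESM at -4.24. Gria1, a glutamate receptor, was at least 13.6-fold and Nefm, a neurofilament, at least 16.2-fold higher, and Stmn4 and Scg5 rose by 3.94 and 3.94. The calls of Rax and Scg5 did not hold when single arrays of the 4 were left out (highest adjusted p from 0.0509 to 0.0919). Fitting slide as a fixed block ended the call of Stmn4 (adjusted p = 0.0928). Fitted with slide fixed, the numbers higher and lower were 7 and none for the 16 early neural genes and 9 and none for the 30 synapse and axon genes. With the mean over probes Rax (1.17) was not called. Differences over the mean of all probes were smaller for Chgb (4.35).

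**Figure D3:**
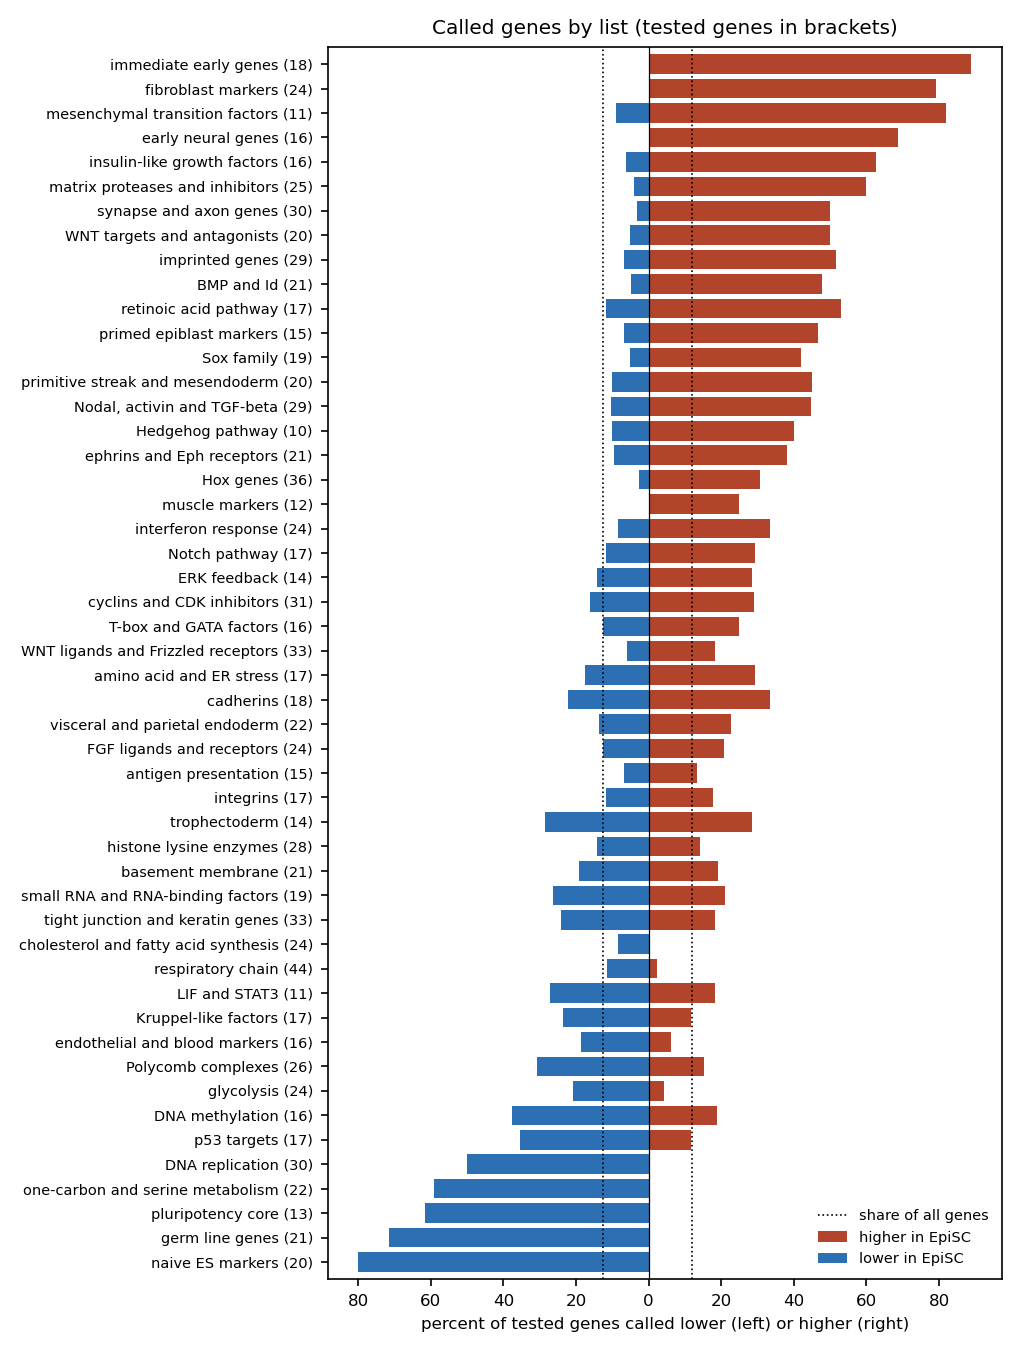
For each list with at least 10 tested genes, the bars give the percent of its tested genes called higher (right, red) or lower (left, blue) in EpiSC against mESM. The dotted lines mark the shares of all genes, 12% higher and 12.7% lower, and the immediate early genes (16 of 18 higher) and the naive markers (16 of 20 lower) lie at the ends.

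Growth factor signalling genes followed, and the immediate early genes moved most uniformly. These genes answer growth factors through ERK without new protein synthesis. Of 18 tested, 16 rose and none fell, with a median difference of 4.00. Egr1, a zinc finger factor downstream of ERK, read 5.54 and 5.56 on the EpiSC arrays and -1.16 and -1.12 on the mESM arrays. Jun, a subunit of AP-1, read 3.92 and 3.79 on the EpiSC arrays and -4.07 and -4.13 on the mESM arrays, a difference of 7.95 ± 0.21 (adjusted p = 4.67e-09). Fos, the other AP-1 subunit, read 3.39 and 3.38 on the EpiSC arrays and -3.44 and -3.41 on the mESM arrays. Atf3, Egr2 and Egr3 rose as well, Atf3 by 6.77 ± 0.39, Egr2 by 6.62 ± 0.27 and Egr3 by 7.66 ± 0.49 on its brightest probe, which was not well above background on mESM, and by 4.02 over the mean of its probes. The epiESM array was in between, at 4.00 for Egr1, -0.38 for Jun and 1.14 for Fos, and against it 15 of 18 were higher with a median of 2.01.

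ERK feedback genes did not share 1 direction. Of 14 tested, 4 rose and 2 fell. The phosphatases Dusp4 and Dusp6 rose by 4.37 ± 0.48 and 2.04 ± 0.47, Errfi1 by 2.90 ± 0.22 and Spry1 by 1.10 ± 0.23. Etv4 and Etv5, transcription factors induced by FGF, were lower, with differences of -2.74 ± 0.37 and -2.02 ± 0.29. Among 24 FGF ligands and receptors, 5 rose and 3 fell, where 12% and 12.7% of all genes did. Beside Fgf5, Fgf8, of the streak, rose by 2.60 ± 0.53, Fgf18 by 2.01 ± 0.36, Fgf13 by 2.23 ± 0.54 and the receptor Fgfr2 by 2.92 ± 0.69, while Fgf17 changed by -2.62 ± 0.54. Fits without 1 of the 4 arrays ended the calls of Dusp6, Spry1, Fgf13 and Fgfr2 (highest adjusted p from 0.0523 to 0.0785). In the fit with slide as a fixed block the calls of Fgf8, Fgf18, Fgf17, Dusp6, Fgf13 and Fgfr2 were lost (adjusted p from 0.131 to 0.256). Rises and falls with slide fixed numbered 2 and 2 for the 14 ERK feedback genes and 2 and 2 for the 24 FGF genes. Averaging over probes left Fgf13 (0.70) uncalled.

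The LIF pathway gave mixed values. Of 11 genes, 2 rose and 3 fell. Bcl3, a target of the pathway in ES cells, read 0.23 and 0.18 on the EpiSC arrays and 2.63 and 2.62 on the mESM arrays, a difference of -2.42 ± 0.26. Pim3 differed by -2.68 ± 0.60 and Mcl1 by -0.88 ± 0.25, both lower in EpiSC. The kinase Jak2 and the factor Stat3 themselves were higher, by 2.22 ± 0.37 and 1.67 ± 0.37. Socs3, the feedback inhibitor, differed by -1.44 ± 0.59 and did not pass (adjusted p = 0.0975), nor did the receptor chains Lifr (-0.71) and Il6st (-0.27). When single arrays were left out, Pim3 and Mcl1 lost their calls (highest adjusted p from 0.0523 to 0.127). The call of Stat3 was lost with slide as a fixed block (adjusted p = 0.275). Fixing slide left, as numbers higher and lower, 1 and 1 for the 11 LIF genes. The mean over probes left Mcl1 (-0.37) and Stat3 (0.69) uncalled.

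In the Nodal, activin and TGF-beta list, 13 of 29 genes rose and 3 fell. Among ligands, Tgfb2 rose by 5.17 ± 0.81 and Inhba, which encodes the activin A subunit, by 3.37 ± 0.92. The receptor Tgfbr2 differed by 4.36 ± 0.47 and the activin antagonist follistatin, Fst, by 5.91 ± 0.47. Pcsk6, a protease that matures Nodal, read -1.38 and -1.56 on the EpiSC arrays and 4.12 and 4.05 on the mESM arrays, a difference of -5.56 ± 0.73. Only 2 genes of this list were higher and 2 lower against epiESM, where Tgfb2 read -0.30, Inhba 2.78 and Fst 0.35. In the BMP list 10 of 21 rose and 1 fell. The inhibitor genes Id2, Id3 and Id4, targets of BMP, rose by 3.87 ± 0.38, 4.62 ± 0.34 and 3.80 ± 0.71. Bmp2 was at least 13.4-fold higher, the BMP antagonist Grem1 rose by 5.59 ± 0.91, and the phosphatase Dusp9 was the gene that fell, by 3.90 on the log2 scale. Inhba lost its call without at least 1 of the 4 arrays (highest adjusted p = 0.0956). A fixed slide block ended the calls of Nodal, Tgfb2 and Grem1 (adjusted p from 0.0922 to 0.136). The numbers higher and lower with slide fixed were 5 and 2 for the 29 Nodal, activin and TGF-beta genes and 5 and 1 for the 21 BMP genes. The mean over probes gave smaller differences for Pcsk6 (-4.82).

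Of 20 WNT targets and antagonists 10 rose and 1 fell, and of 33 WNT ligands and Frizzled receptors 6 rose and 2 fell. Among all genes 12% rose and 12.7% fell. Sp5, a direct target of beta-catenin, read 2.57 and 2.48 on the EpiSC arrays and -3.63 and -3.88 on the mESM arrays, a difference of 6.28 ± 0.78 (adjusted p = 0.000211). The epiESM array, at 3.39, was higher than both EpiSC arrays, so this gene differed between the 2 ES conditions. Lgr5, a receptor for R-spondins, was at least 32.2-fold higher, and the antagonists Frzb, Dkk2 and Wif1 at least 26.3-fold, 19.7-fold and 36.8-fold, while Dkk1 rose by 4.55 ± 0.52. Of the ligands, Wnt3, which acts in streak formation, rose by 2.55 ± 0.53, and Wnt8a and Wnt2 were at least 2.50-fold and 5.97-fold higher. The receptors Fzd1, Fzd2 and Fzd3 rose by 3.50, 2.56 and 2.23. Leaving out 1 of the 4 arrays ended the calls of Wnt8a and Fzd2 (highest adjusted p from 0.0773 to 0.175). Under the fixed slide block Dkk2, Wnt2, Fzd1 and Fzd3 were not called (adjusted p from 0.0922 to 0.197). Numbers higher and lower with slide as a fixed block were 6 and 1 for the 20 WNT targets and antagonists and 1 and none for the 33 WNT ligands and Frizzled receptors. The Sp5 promoter is shown since it holds, in capitals, the TCF/LEF letters CTTTGAT, which occur on either strand in 2.87% of all promoters and in 2.31% of those of genes that rose. The 200 bases before the start lie at chr2:70474723-70474922, + strand, in RefSeq (GRCm38.p6).
Sp5: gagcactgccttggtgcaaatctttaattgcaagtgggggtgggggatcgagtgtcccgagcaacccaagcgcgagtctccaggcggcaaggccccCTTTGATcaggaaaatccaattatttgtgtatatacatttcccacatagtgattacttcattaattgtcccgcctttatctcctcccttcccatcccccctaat

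In the smaller pathways, 4 of 10 Hedgehog genes rose and 1 fell. Shh, the ligand of the node and notochord, read 0.71 and 1.06 on the EpiSC arrays and -7.02 and -6.93 on the mESM arrays, and was at least 56.8-fold higher (adjusted p = 0.000346). Hhip, Gli3 and the receptor Ptch1 rose by 3.03, 2.13 and 1.73, whereas the target Gli1 did not pass the test (-0.87, adjusted p = 0.123). Of 17 Notch genes, 5 rose and 2 fell. The target Hey1 rose by 3.62 ± 0.37 and the ligand Jag1 by 2.66 ± 0.37, and Jag2 and the effector Rbpj, with differences of -3.20 and -1.57, fell. Without 1 or more of the 4 arrays, taken singly, the calls of Ptch1 and Rbpj were lost (highest adjusted p from 0.102 to 0.178). Gli3 and Jag1 were not called with slide as a fixed block (adjusted p from 0.0835 to 0.109). Fitted with slide fixed, the numbers higher and lower were 2 and none for the 10 Hedgehog genes and 3 and 1 for the 17 Notch genes. Jag1 (2.04) was not called when probes were averaged.

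Of 17 retinoic acid genes, 9 rose and 2 fell. Cyp26a1, which degrades retinoic acid, read 2.46 and 2.70 on the EpiSC arrays and -3.25 and -3.32 on the mESM arrays, and the carrier Crabp1 rose by 3.61 ± 0.73. The receptor Rarb differed by 3.39 ± 0.44. Of 16 insulin-like growth factor genes, 10 rose and 1 fell. Igfbp5, a binding protein, rose by 8.90 ± 1.15 on its brightest probe, which was not well above background on mESM, and by 5.07 over the mean of its probes. Igf2 rose by 5.60 ± 0.62, Irs1 by 4.40 ± 0.71 and Igfbp3 by 3.01 ± 0.38. Against epiESM 3 of the 16 were higher and 1 lower. Of 21 ephrins and Eph receptors, 8 rose and 2 fell, with Efnb2, Efna5 and Efnb1 up by 4.55, 4.21 and 3.74 and Efna3 at -1.96. The call of Efnb1 did not hold when single arrays of the 4 were left out (highest adjusted p = 0.166). Fitting slide as a fixed block ended the calls of Crabp1, Igfbp5, Irs1, Efna5, Efna3 and Efnb1 (adjusted p from 0.0553 to 0.419). Rises and falls with slide fixed numbered 3 and none for the 17 retinoic acid genes, 4 and none for the 16 insulin-like growth factor genes and 3 and none for the 21 ephrins and Eph receptors. With the mean over probes Rarb (1.41) was not called.

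Among adhesion genes, E-cadherin was lower and N-cadherin higher. Cdh1, E-cadherin of epithelial cells, read 2.32 and 2.35 on the EpiSC arrays and 4.46 and 4.44 on the mESM arrays, a difference of -2.11 ± 0.70 (adjusted p = 0.0477), beside the rise of Cdh2 given above. In all, 6 of 18 cadherin genes rose and 4 fell, with Cdh13, Ctnna2 and Cdh22 higher by 4.97, 3.94 and 3.17. Cdh10 rose by 4.94 on its brightest probe, which was not well above background on mESM. Tight junction and keratin genes split, 6 of 33 higher and 8 lower, beside 12% and 12.7% of all genes. Pkp3, Grhl2 and Krt17 were among the falls (-3.38, -2.71 and -2.50) and Krt19 was at 2.70. Of 11 mesenchymal transition factors 9 rose and 1 fell. Prrx1, a mesenchymal homeobox gene, read 1.19 and 1.24 on the EpiSC arrays and -4.47 and -4.94 on the mESM arrays, and Zeb2, a repressor of E-cadherin, 0.58 and 0.91 on the EpiSC arrays and -4.05 and -4.08 on the mESM arrays. Twist2, Snai1, Twist1, Zeb1 and Snai2 rose by 3.75, 2.94, 2.33, 2.30 and 1.95. Against epiESM 2 of these 11 were higher and the median was 0.19, since epiESM read 1.66 for Prrx1 and 0.13 for Snai1. Fits without 1 of the 4 arrays ended the calls of Cdh1, Grhl2, Twist2, Twist1 and Snai2 (highest adjusted p from 0.0641 to 0.202). With slide as a fixed block the calls of Cdh1, Grhl2, Cdh13, Krt17, Prrx1, Zeb2 and Snai1 were lost (adjusted p from 0.0964 to 0.347). Fixing slide left, as numbers higher and lower, 4 and none for the 18 cadherin genes, 1 and 2 for the 33 tight junction and keratin genes and 2 and none for the 11 mesenchymal transition factors. Averaging over probes left Cdh10 (1.75), Grhl2 (-1.64) and Prrx1 (2.25) uncalled.

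Fibroblast markers moved with these genes. Of 24 tested, 19 rose and none fell, with a median difference of 4.17, or 4.01 with genes at their bound. Postn, a matrix protein of fibroblasts and here not well above background on mESM on its brightest probe, read 2.69 and 3.08 on the EpiSC arrays and -5.39 and -5.42 on the mESM arrays, and Col3a1, a collagen chain, 4.02 and 4.28 on the EpiSC arrays and -2.91 and -2.84 on the mESM arrays. Dcn and Lum, matrix proteoglycans, rose by 7.52 ± 0.85 and 6.05 ± 0.76, Col6a3 by 7.28 ± 0.60 and Col6a1 at least 62.4-fold. The summed level of the 24 markers was 617 and 576 on the EpiSC arrays, 480.5 on epiESM and 70.0 and 75.7 on the mESM arrays, where 21 of the 24 were well above background. Against epiESM none of the 24 passed the test (median 0.44). The part of fibroblasts in the rises of matrix, growth factor and mesenchymal genes was not tested. The calls of Dcn and Lum were lost with slide as a fixed block (adjusted p from 0.0615 to 0.0637). The numbers higher and lower with slide fixed were 6 and none for the 24 fibroblast markers. Averaged over probes, the difference was smaller for Postn (4.04), Col3a1 (4.40) and Col6a3 (4.50).

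**Figure D4:**
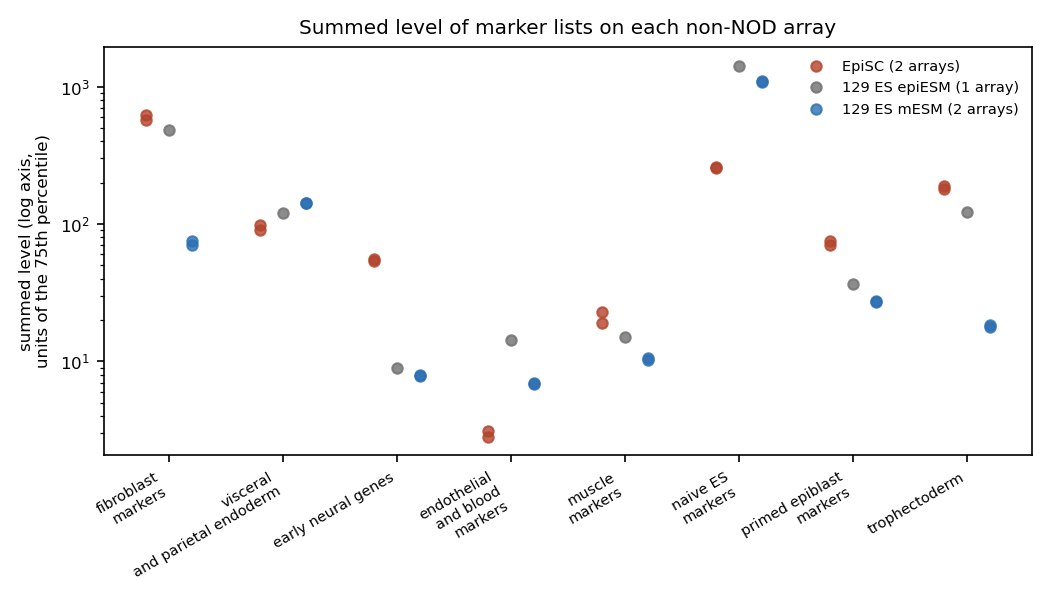
Summed level of 8 marker lists on each non-NOD array (log axis, in units of the array's 75th percentile), with EpiSC in red, epiESM in grey and mESM in blue. Fibroblast markers read alike in EpiSC and epiESM and lower in mESM, whereas neural markers were high in EpiSC alone of these arrays and naive markers were lower in EpiSC than on both kinds of ES array.

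Of 25 matrix proteases and inhibitors, 15 rose and 1 fell, and 5 were higher against epiESM. Mmp3 and Mmp13, matrix metalloproteinases, were at least 152-fold and 16.7-fold higher, Adamts1 and Adamts2 rose by 5.63 ± 0.65 and 4.71 ± 1.05, and the inhibitors Timp3 and Timp2 by 3.46 ± 0.79 and 3.45 ± 1.08. Basement membrane genes split, 4 of 21 higher and 4 lower. Lama4 rose by 5.67 ± 0.72, while Lama1, the laminin chain of the embryonic basement membrane, read -1.95 and -2.19 on the EpiSC arrays and 1.00 and 0.95 on the mESM arrays, and Nid2 was at -2.32. Among 17 integrins 3 rose and 2 fell, where 12% and 12.7% of all genes did. Itgb8, Itga8 and Itga4 were the rises (3.01, 1.90 and 1.60) and Itgb7 and Itgb4 the falls (-4.85 and -2.48). When single arrays were left out, Adamts2, Timp3, Timp2, Nid2 and Itga4 lost their calls (highest adjusted p from 0.0505 to 0.146). A fixed slide block ended the calls of Adamts1, Lama4 and Adamts2 (adjusted p from 0.0523 to 0.201). Numbers higher and lower with slide as a fixed block were 4 and none for the 25 matrix proteases and inhibitors and 1 and 2 for the 21 basement membrane genes. The mean over probes left Adamts2 (1.57), Itga8 (0.94) and Itga4 (0.01) uncalled.

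Markers of blood, endothelium and muscle gave few calls, though many were well above background. Of 16 endothelial and blood markers, 1 rose and 3 fell, with a summed level of 3.14 and 2.82 on EpiSC and 6.84 and 6.96 on mESM. Hbb-bh1, an embryonic globin, rose by 4.14 ± 0.58, and Cdh5 of endothelium was near the floor at -5.18 and -4.35 on the EpiSC arrays and -6.93 and -6.87 on the mESM arrays. On the EpiSC arrays 9 and 14 of the 16 were well above background, on mESM 11. Muscle markers rose in 3 of 12 cases and none fell. Their summed level was 23 and 18.9 on EpiSC, with 9 and 12 of the 12 well above background, and 10.3 and 10.6 on mESM, with 11, and the regulators Myod1 and Myog did not pass the test, with differences of -0.61 and -0.25. Of 36 Hox genes, 11 rose and 1 fell, among them Hoxb2, Hoxa2 and Hoxc9 (at least 23.5-fold, 10.3-fold and 10.4-fold), but against epiESM 1 of 36 was higher. In the Sox family 8 of 19 rose and 1 fell. Sox9, a factor of neural crest, cartilage and endoderm progenitors, read 2.46 and 2.62 on the EpiSC arrays and -7.17 and -7.09 on the mESM arrays, with epiESM at -2.00. Its brightest probe was not well above background on mESM, where another of its probes was. Hoxb2 and Hoxa2 lost their calls without at least 1 of the 4 arrays (highest adjusted p from 0.0581 to 0.131). Under the fixed slide block Hoxc9 was not called (adjusted p = 0.259). Fitted with slide fixed, the numbers higher and lower were none and none for the 12 muscle markers and 5 and none for the 36 Hox genes. Hoxb2 (3.42) was not called when probes were averaged. Differences over the mean of all probes were smaller for Sox9 (6.44).

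Germ line genes, a group that ES cells are known to transcribe, were lower in EpiSC. Of 21 tested, 15 fell and none rose, with a median difference of -5.03, or -3.45 with genes at their bound. Ddx4, the helicase Vasa of germ cells, read -5.44 and -6.15 on the EpiSC arrays and 1.87 and 1.84 on the mESM arrays, at least 69.5-fold lower (adjusted p = 4.35e-05). Stra8, a gene of meiotic entry, read -4.61 and -4.49 on the EpiSC arrays and 3.81 and 3.81 on the mESM arrays, a difference of -8.35 ± 0.89. Sycp3, of the synaptonemal complex, was at least 19.4-fold lower, Tex14 at least 32.7-fold, Rnf17 at least 13.3-fold and Hormad1 at least 12.1-fold. The epiESM array read -0.11 for Ddx4, -0.38 for Sycp3 and -0.66 for Stra8, and against it 13 of 21 were lower. With the normexp correction 5 of the 21 fell, where 2.38% of all genes did. Leaving out 1 of the 4 arrays ended the call of Hormad1 (highest adjusted p = 0.119).

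Many promoters of these genes held the palindromic E-box CACGTG, the letters read by several basic helix-loop-helix factors. It was found in 9 of the 13 matched promoters of germ line genes that fell (69.2%) and in 2 of the 5 of those not called, against 9.09% of all 14131 promoters and 10.3% of those of all genes that fell. The E2F-type letters GCGGGAA, on either strand, were in 5 of the 13 (38.5%) against 7.03% of all. The window ran from 250 bases before to 50 after the start. None of the other motifs searched contains CACGTG, though some share shorter stretches of letters with it. The ratio of observed to expected CpG had a median of 0.733 in these 13 and 0.679 in all promoters, and both motifs hold a CpG. Shares of the list are a description of these genes and were not tested. Without 1 or more of the 4 arrays, taken singly, the call of Taf7l was lost (highest adjusted p = 0.0505). Stretches of 200 bases before the start are shown for 5 of the genes that fell, with CACGTG in capitals, to let its place near the start be seen, 29 to 24 bases before it in Ddx4 and 64 to 59 and 43 to 38 in Sycp3. RefSeq (GRCm38.p6) places them at chr13:112652311-112652510 (- strand, Ddx4), chr10:88459387-88459586 (+ strand, Sycp3), chr3:95559477-95559676 (+ strand, Hormad1), chr6:49395339-49395538 (+ strand, Stk31) and chrX:134476491-134476690 (- strand, Taf7l).
Ddx4: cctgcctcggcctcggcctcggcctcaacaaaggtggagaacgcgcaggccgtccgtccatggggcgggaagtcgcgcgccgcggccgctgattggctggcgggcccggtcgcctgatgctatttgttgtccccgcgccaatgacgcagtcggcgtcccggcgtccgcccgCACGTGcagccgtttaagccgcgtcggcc
Sycp3: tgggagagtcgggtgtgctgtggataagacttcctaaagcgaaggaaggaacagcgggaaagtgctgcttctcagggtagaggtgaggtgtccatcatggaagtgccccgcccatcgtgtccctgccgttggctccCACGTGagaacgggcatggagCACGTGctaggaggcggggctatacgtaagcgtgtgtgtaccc
Hormad1: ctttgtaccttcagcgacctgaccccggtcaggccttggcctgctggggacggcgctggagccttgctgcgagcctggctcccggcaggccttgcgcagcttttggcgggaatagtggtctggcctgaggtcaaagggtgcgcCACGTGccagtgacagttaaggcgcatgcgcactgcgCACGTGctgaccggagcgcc
Stk31: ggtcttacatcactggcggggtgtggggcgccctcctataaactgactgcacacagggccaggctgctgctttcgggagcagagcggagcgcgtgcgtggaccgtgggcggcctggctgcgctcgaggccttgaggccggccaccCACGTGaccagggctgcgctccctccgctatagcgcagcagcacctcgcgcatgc
Taf7l: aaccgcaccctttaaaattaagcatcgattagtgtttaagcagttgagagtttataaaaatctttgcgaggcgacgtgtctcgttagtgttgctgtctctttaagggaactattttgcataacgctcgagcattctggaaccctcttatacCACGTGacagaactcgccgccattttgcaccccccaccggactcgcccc

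Stk31 and Taf7l, germ cell genes chosen for their sequence after their values were seen, were at least 7.01-fold and 3.63-fold lower. Homeobox genes of the X-linked Rhox cluster were lower too, 4 of 6 tested with none higher. Rhox5, known as Pem, read -0.88 and -0.50 on the EpiSC arrays and 6.26 and 6.21 on the mESM arrays, a difference of -6.93 ± 0.79 (adjusted p = 0.000123), with epiESM at 2.17. Rhox6, Rhox9 and Rhox13 also fell, at -4.33, -4.06 and at least 7.75-fold. None of 6 genes of the 2-cell stage passed the test against mESM, with Zscan4c at -4.42 and -4.17 on the EpiSC arrays and -2.22 and -2.14 on the mESM arrays. On the epiESM array Zscan4c read 2.66, and against it 5 of the 6 were lower in EpiSC. The calls of Rhox6, Rhox9 and Rhox13 did not hold when single arrays of the 4 were left out (highest adjusted p from 0.0662 to 0.101). Rhox5 was not called with slide as a fixed block (adjusted p = 0.0552). Rises and falls with slide fixed numbered none and 1 for the 6 Rhox homeobox genes.

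Of 16 DNA methylation genes, 6 fell and 3 rose. Dnmt3l, the cofactor of the de novo enzymes, read -2.49 and -2.48 on the EpiSC arrays and 5.31 and 5.31 on the mESM arrays, a difference of -7.79 ± 0.39 (adjusted p = 5.77e-07). The dioxygenases Tet1 and Tet2, which oxidise methylated cytosine and are high in ES cells, were lower by differences of -3.52 ± 0.41 and -3.99 ± 0.74, and Tet3 was higher, at 2.20 ± 0.37. Zfp57, which guards imprints, changed by -3.99 ± 1.03. Of 29 imprinted genes, expressed from 1 parental copy, 15 rose and 2 fell, with a median of 1.69. Mest, a paternally expressed gene, read 4.97 and 5.17 on the EpiSC arrays and -3.91 and -4.68 on the mESM arrays, the largest difference of the list at 9.36 ± 0.47, while epiESM read 3.24. H19, a maternally expressed RNA, read 5.73 and 4.99 on the EpiSC arrays and -0.98 and -0.91 on the mESM arrays, with epiESM at -0.41. Its paternally expressed neighbour Igf2 read 5.72 and 5.60 on the EpiSC arrays and 0.06 and 0.05 on the mESM arrays, with epiESM at 1.51, so both were higher in EpiSC than on every 129 ES array. Nnat and Plagl1 rose by 7.33 ± 0.68 and 5.98 ± 0.92, and Phlda2 read -0.31 and -0.15 on the EpiSC arrays and 4.79 and 4.80 on the mESM arrays, a difference of -5.03 ± 0.26. Against epiESM 9 of the 29 were higher and 2 lower. Of 6 genes of X inactivation 2 fell. Tsix, the antisense RNA of Xist, was at least 7.99-fold lower, with Xist at -3.10 and -2.88 on the EpiSC arrays and -4.38 and -4.28 on the mESM arrays and a difference of 1.34 that did not pass (adjusted p = 0.22). Fitting slide as a fixed block ended the calls of Tet2, Tet3, Zfp57 and Plagl1 (adjusted p from 0.0637 to 0.144). Fixing slide left, as numbers higher and lower, 1 and 2 for the 16 DNA methylation genes and 10 and 2 for the 29 imprinted genes. With the mean over probes Tet3 (0.85) was not called.

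Polycomb products silence genes through histone marks, and of 26 Polycomb genes 8 fell and 4 rose. Within the complexes some subunits were lower and others higher. Cbx7, Phc1 and Mtf2, high in ES cells, read lower in EpiSC, with differences of -3.80 ± 0.34, -2.33 ± 0.22 and -3.05 ± 0.33. Phc2 and Bmi1 rose by 2.85 ± 0.26 and 2.27 ± 0.35, and Eed, of the methylating complex, changed by -2.01 ± 0.43. Histone lysine enzymes gave 4 rises and 4 falls among 28 genes, shares close to the 12% and 12.7% of all genes. The demethylase Kdm4c fell by 1.94 and Kdm2b by 1.30 on the log2 scale, Kdm6b rose by 1.93 ± 0.54, and Kdm5d, on the Y chromosome, rose beside Kdm5c, its X-linked partner, which fell (1.86 and -1.17). Small RNA and RNA-binding factors gave 4 rises and 5 falls in 19. Hmga2, a target of let-7 in this list, rose by 5.14 ± 0.67, with epiESM at 0.60, and Rbpms2, Rbpms and Msi1 fell, at -1.85, -1.38 and -1.72. Fits without 1 of the 4 arrays ended the calls of Eed, Kdm6b, Kdm5d, Kdm5c, Rbpms2, Rbpms and Msi1 (highest adjusted p from 0.058 to 0.165). In the fit with slide as a fixed block the calls of Kdm4c and Kdm2b were lost (adjusted p from 0.0501 to 0.111). The numbers higher and lower with slide fixed were 2 and 3 for the 26 Polycomb genes, none and none for the 28 histone lysine enzymes and 1 and none for the 19 small RNA and RNA-binding factors. Averaging over probes left Kdm5c (-0.80) and Msi1 (-1.22) uncalled.

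Genes of DNA replication were lower without exception among those called. Of 30 tested, 15 fell and none rose, with a median of -1.06. Mcm10, a factor of replication initiation, read 2.46 and 2.52 on the EpiSC arrays and 4.69 and 4.65 on the mESM arrays, a difference of -2.18 ± 0.30 (adjusted p = 0.000443). Pole, a polymerase of the leading strand, differed by -2.15 ± 0.26, the origin factor Orc1 by -2.04 ± 0.47, the polymerase alpha subunits Pola2 and Pola1 by -1.84 ± 0.41 and -1.74 ± 0.52, and the licensing factor Cdc6 by -1.75 ± 0.43. Against epiESM 14 of the 30 were lower. These are small shifts beside those above, and with the normexp correction 2 and with slide as a fixed block 4 of the 30 fell, while without the 2 arrays that stand apart 26 did. Under the last 2 of these settings 4.52% and 25% of all genes fell. When single arrays were left out, Orc1, Pola1 and Cdc6 lost their calls (highest adjusted p from 0.0589 to 0.166). The call of Pola2 was lost with slide as a fixed block (adjusted p = 0.0945). The mean over probes left Cdc6 (-1.06) uncalled. Promoters of the list held GCGGGAA in 11 of 24 cases (45.8%, against 7.03% of all), with a median CpG ratio of 0.915. Those of Cdc6, at chr11:98907951-98908150 on the + strand, and Pola1, at chrX:93632156-93632355 on the - strand (RefSeq, GRCm38.p6), are shown with these letters, or their complement on the other strand, in capitals.
Cdc6: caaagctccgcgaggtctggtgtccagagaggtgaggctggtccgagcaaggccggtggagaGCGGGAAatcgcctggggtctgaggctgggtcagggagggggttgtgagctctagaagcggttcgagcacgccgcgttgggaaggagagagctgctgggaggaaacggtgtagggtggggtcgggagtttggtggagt
Pola1: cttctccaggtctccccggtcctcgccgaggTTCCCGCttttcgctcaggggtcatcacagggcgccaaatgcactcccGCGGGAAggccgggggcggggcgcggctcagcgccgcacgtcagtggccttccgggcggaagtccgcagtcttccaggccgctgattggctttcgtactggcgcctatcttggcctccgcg

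Among cell cycle regulators, cyclin E1 was lower while cyclin D2 and inhibitors were higher. Ccne1, the cyclin E1 gene, read 3.44 and 3.16 on the EpiSC arrays and 5.94 and 5.92 on the mESM arrays, a difference of -2.63 ± 0.23 (adjusted p = 1.81e-05). Ccnd2 rose by 4.33 ± 0.89, Cdk6 by 2.37 ± 0.32 and the inhibitors Cdkn1c, Cdkn2b and Cdkn2a by 3.62 ± 0.88, 2.89 ± 0.83 and 2.39 ± 0.39. Among 31 cyclins and inhibitors 9 rose and 5 fell, and against epiESM 2 rose and 3 fell, with epiESM at 0.46 for Cdkn2a and 1.96 for Cdkn2b. Of 17 p53 targets and partners 6 fell and 2 rose. Trp53 itself read 1.87 and 1.04 on the EpiSC arrays and 3.41 and 3.41 on the mESM arrays, with epiESM at 0.99, and Mdm4, Bax, Eda2r and Trp53inp1 were lower (-2.54, -1.84, -1.62 and -1.14), while Btg2, also an immediate early gene, rose by 3.07 ± 0.22. Cdkn1c, Cdkn2b, Trp53, Bax and Trp53inp1 lost their calls without at least 1 of the 4 arrays (highest adjusted p from 0.0653 to 0.175). A fixed slide block ended the calls of Ccnd2, Cdk6, Cdkn2a, Mdm4, Cdkn1c, Cdkn2b and Bax (adjusted p from 0.0613 to 0.435). Numbers higher and lower with slide as a fixed block were 1 and 1 for the 31 cyclins and inhibitors and 1 and 1 for the 17 p53 genes. Cdk6 (0.05) and Eda2r (-1.19) were not called when probes were averaged.

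Genes of folate (1-carbon) and serine metabolism fell in 13 of 22 cases and none rose, with a median of -1.24. Beside Tdh, counted among the naive markers, Mthfd1, a folate enzyme, read 2.06 and 1.97 on the EpiSC arrays and 4.62 and 4.59 on the mESM arrays, a difference of -2.59 ± 0.34 (adjusted p = 0.000297). Cth and Cbs, which make cysteine from homocysteine, differed by -4.02 ± 0.96 and -2.90 ± 0.65, Psph, the last step of serine synthesis, by -2.09 ± 0.64, and Bhmt2 was at least 4.87-fold lower. Against epiESM 8 of the 22 were lower. With the normexp correction 3 and with slide as a fixed block 5 fell. Of 24 glycolysis genes, 5 fell and 1 rose. The falls were Pfkp, Hk2, Eno1 and the glucose transporters Slc2a3 and Slc2a1, with differences of -2.79, -1.27, -1.15, -1.57 and -1.04, and Slc16a1, a lactate transporter, differed by 0.87. Of 44 respiratory chain genes 5 fell and 1 rose, shares at or below those of all genes. The falls included the testis form Cox6b2 (-2.13) and Cox7a1 (-2.01). Lipid synthesis genes fell in 2 of 24 cases, Elovl6 by 2.05 and Dhcr7 by 0.83 on the log2 scale. In the amino acid and ER stress list Asns, asparagine synthetase, and Trib3 fell, at -2.63 and -2.23, while Ddit3, Cebpb, Herpud1 and Atf5 rose by 1.93, 1.92, 1.60 and 1.44. Leaving out 1 of the 4 arrays ended the calls of Cth, Cbs, Psph, Bhmt2, Hk2, Eno1, Slc2a1, Slc16a1, Dhcr7 and Herpud1 (highest adjusted p from 0.0576 to 0.212). Under the fixed slide block Pfkp, Slc2a3, Elovl6, Asns, Trib3, Atf5, Cth, Hk2, Eno1, Dhcr7 and Herpud1 were not called (adjusted p from 0.0574 to 0.386). Fitted with slide fixed, the numbers higher and lower were none and none for the 24 glycolysis genes, none and 2 for the 44 respiratory chain genes and 2 and none for the 17 amino acid and ER stress genes. With the mean over probes Slc16a1 (0.44) was not called.

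Of 15 antigen presentation genes 2 rose and 1 fell, close to the 12% higher among all genes. B2m, the light chain of class I molecules, read 3.54 and 3.43 on the EpiSC arrays and 0.28 and 0.22 on the mESM arrays, with epiESM at 2.98, and Psmb8, an immunoproteasome subunit, 1.60 and 1.62 on the EpiSC arrays and -4.02 and -4.24 on the mESM arrays, and Cd74 was lower (-1.51). Of 24 interferon response genes, 8 rose and 2 fell. Ifi27 read 2.97 and 3.07 on the EpiSC arrays and -2.54 and -2.70 on the mESM arrays, Ifit3, Usp18, Mx2 and Ifit1 were at least 9.45-fold, 10.1-fold, 4.23-fold and 3.76-fold higher, and Oas2 at least 5.47-fold lower. Against epiESM none of the 24 was higher and 3 were lower, with Ifi27 at 2.52 on that array. Without 1 or more of the 4 arrays, taken singly, the calls of Cd74, Ifit3, Mx2 and Ifit1 were lost (highest adjusted p from 0.0565 to 0.212). B2m, Psmb8, Ifi27, Usp18, Cd74 and Ifit3 were not called with slide as a fixed block (adjusted p from 0.0674 to 0.408). Rises and falls with slide fixed numbered none and none for the 15 antigen presentation genes and 1 and 2 for the 24 interferon genes. The mean over probes gave smaller differences for B2m (2.48).

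The primed against naive contrast in NOD lines shares no array with this one. Both come from 1 fit and use the same spread for each gene, so calls made in both are not separate tests. There, 8969 genes (38.7%) differed between EpiSC-like and ES cells, 16.7% of all genes being higher and 22.0% lower. Of the 5707 genes called here, 3658 (64.1%) were called there in the same direction and 237 in the opposite one, and the 3658 are 40.8% of the NOD calls. Of the 20 naive markers 17 were lower and 1 higher in NOD lines, and of the 21 germ line genes 15 were lower. Zfp42 stood at -9.82, Esrrb at -9.31, Tdh at -9.23, Ddx4 at -6.76 and Dnmt3l at -7.97 in NOD lines, and none of these 5 differences passed the test for being unequal, whereas those of the naive markers Gbx2 (interaction -2.26) and Nr5a2 (3.25) did. Pou5f1 was lower in both, at -6.00 in NOD. Fabp7 (7.92), Chgb (7.52) and Igfbp5 (6.96) rose there as well.

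The difference itself was unequal for 2904 genes (12.5%, adjusted p of the interaction under 0.05), 1745 with the non-NOD value above the NOD value (7.53%) and 1159 below it (5%). For genes below background on 1 side the differences given here depend on the floor of the scanner software. Mest led, with 9.36 here and 1.04 in NOD, an interaction of 8.32 (adjusted p = 3.7e-05). Sp5 was next and had opposite signs, 6.28 against -1.13, with an interaction of 7.41. Fgf5 came after it, with 9.66 against 2.40 (7.26, adjusted p = 2.95e-05). Egr1, Egr2 and Egr3 had NOD values of 0.00, 0.58 and 0.64, and Postn and Cer1 of 1.13 and 5.18. In the other direction, Gkn2, a stomach protein gene, was at -0.51 here and 7.43 in NOD, and Rhox5 at -6.93 and 0.83. Cd300lf, Mrc1, Srgn, Ctss and Ms4a6d, known from myeloid cells, had values of -3.72, -2.10, -0.67, -1.65 and -1.88 here and 3.66, 5.03, 6.28, 4.92 and 4.10 in NOD. Lama1 fell here and was at 2.90 in NOD, and Muc3, Aqp8 and Mcpt9 complete the extremes with interactions of -6.38, -5.97 and 6.11. Mcpt9 differed between the EpiSC passages, at -0.21 and -3.85. The EpiSC against mESM calls of Muc3 and Mcpt9 did not hold when single arrays were left out. With the normexp correction 29 interactions passed and with slide as a fixed block 279.

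**Figure D5:**
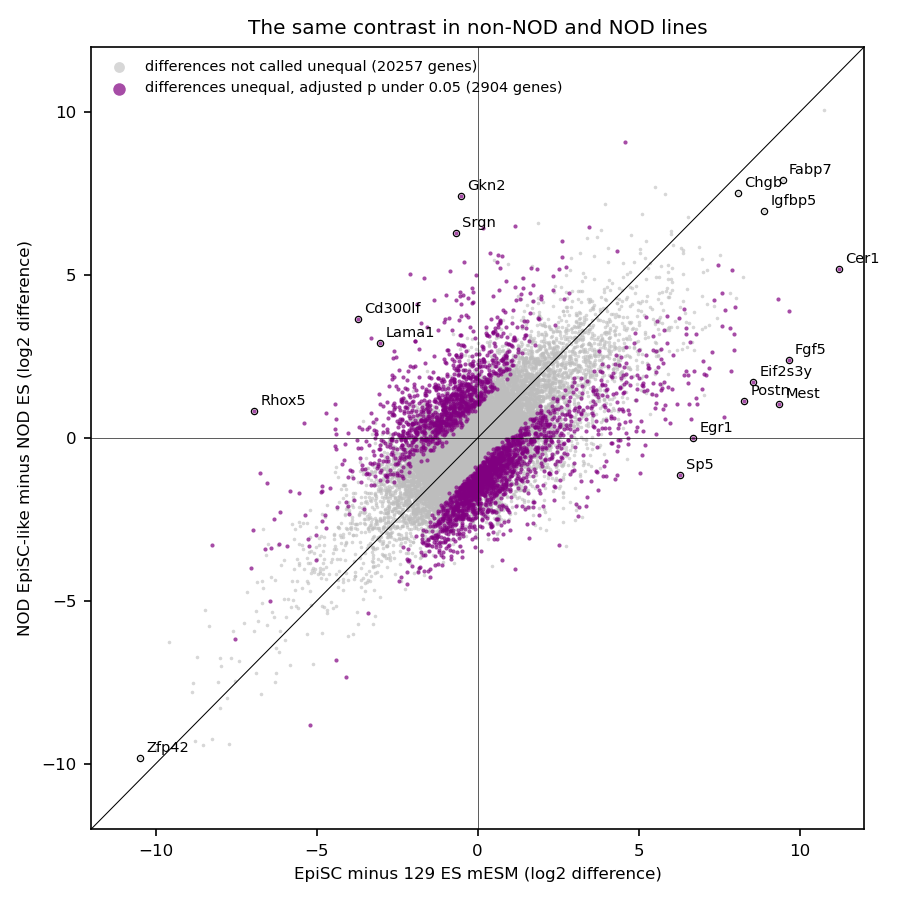
Each point is a gene, with its EpiSC minus mESM difference on the x axis and its NOD EpiSC-like minus NOD ES difference on the y axis (log2), and the line marks equal differences. The 2904 genes with unequal differences are purple; Zfp42 and Fabp7 lie near the line, while Mest, Fgf5 and Egr1 lie far below it and Gkn2 and Srgn above it.

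Between the EpiSC passages there is 1 array each and no test. Among 15793 genes well above background on both, 2 were higher at passage 20 by more than 4-fold (0.0127%) and 135 lower (0.855%), with a median log2 difference of -0.05. The 2 were Ube2s, an E2 enzyme of mitotic exit, and Rab5c, an endosomal GTPase, which read 2.58 and 5.31 and 0.83 and 3.14 at passages 12 and 20. U2af2, Nkpd1, Hydin, Dapk3, Lrrk2 and Pex2 came next, with differences from 1.54 to 1.27. The 8 lowest were Olfr1271, Pcdhb19, Hspb6, 4921507P07Rik, Cntnap5c, Ralgapa2, 4930470P17Rik and Mcpt9, all near or below the 75th percentile at passage 12 and at -4.16 to -3.64 between passages. Gene spots well above background made up 55.9% at passage 12 and 71.7% at passage 20, and the part of this share in these low values was not tested. Of genes that rose against mESM, Fgf5, Cer1, Foxa2 and Egr1 read alike in both passages, with differences of -0.03, 0.00, 0.04 and 0.02, while H19 was at -0.74. Among genes that fell, Dppa5a and Dnmt3l were at 0.11 and 0.01, and Dppa4, Dppa3 and Esrrb at -1.77, -1.70 and 0.97. Neither EpiSC array was well above background for Dppa4 and Dppa3.

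Promoters of the genes that moved most were poorer in CpG than the rest, in both directions. Of 23161 genes, 14131 matched a RefSeq promoter. The median ratio of observed to expected CpG was 0.541 for the 284 that rose by at least 16-fold and 0.458 for the 151 that fell by as much, against 0.679 for all, and for all genes that rose or fell it was 0.702 and 0.715. TATAAA, read on either strand, was in 20.8% and 14.6% of the 2 strongly changed classes and in 10.9% of all promoters. The AP-1 letters TGANTCA were in 7.75% and 5.30% of them against 6.37% of all, and in none of the 14 promoters of immediate early genes. CCAAT was in 38.4% and 35.8%, close to the 38.5% of all.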

How the data were processed

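RNA was hybridised to 16 Agilent one-colour arrays (design 014868), and the deposited scanner files hold spot intensity from Feature Extraction 10.1.1.1, per the file headers, already background-subtracted by the authors' scanner software. The deposited value table is log2 on the authors' scale, from the values quantile-normalized mean signal with a median of 6.93 in each column, and its centring step is not given in the sources used here. It served as an alternative. The signal of 41174 gene probes was taken as log2 minus the array's 75th percentile, and the 34289 probes well above background on at least 2 arrays were kept. The probe with the highest mean stood for each of 23161 genes. Probes were named through the RefSeq table by accession (22951), symbol (6659) or older symbol (3109), and 8455 kept the name in the file.

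Group means over the 16 arrays came from a single fit in limma 3.58.1 (R 4.3.3), with Benjamini-Hochberg adjustment over all genes, and was tested on simulated data. A fold is given as "at least" where no probe of the gene was well above background on an array of the dimmer group, against the higher of the lowest signal among probes well above background and the probe's own. Summed levels of markers are linear, in units of the 75th percentile. Alternatives covered background correction (normexp, offset 50), normalization, centring, filters, probe rule, slide, arrays in the fit and controls. Promoter letters were sought in RefSeq promoters of 14131 genes.

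Members and gene lists were chosen with earlier results of these data known, so no list is independent evidence. Named genes were all core, naive and primed markers, up to 6 members of every other list by size of difference (called ones first), all of lists with 12 or fewer tested genes, the 12 that rose and fell most, the 8 in each direction between passages and the 10 in each direction by interaction, and some genes this rule takes are not reported here. The OCT-SOX motif was chosen after seeing the data.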

Additional observations from a re-analysis of the deposited data

Results flagged for a closer look

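The genes listed here, 89 of those named above, had unequal differences in the non-NOD and NOD contrasts. Their EpiSC minus mESM difference and NOD EpiSC-like minus NOD ES difference passed limma's test of the interaction (adjusted p under 0.05). The value in brackets is the first difference minus the second on the log2 scale, and a gene below background on 1 side depends in size on the floor of the scanner software. EpiSC and mESM have too few arrays to test whether 1 stands apart. For the 25 genes whose NOD values are given above, the 4 NOD EpiSC-like ES arrays were tested by Dixon's criterion, which chance passes in about 1 of 20 groups, and 2 passed: Zfp42 read -2.71 on replicate 2 and Egr2 3.12 on replicate 1, against medians of -5.50 and 2.98. Each set below was formed for this account from genes already named, and nothing on its cause was tested.

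Some immediate early, ERK feedback and BMP target genes stood higher in the non-NOD contrast, namely Egr1 (6.69), Egr2 (6.04), Egr3 (7.02), Fos (5.75), Jun (5.24), Atf3 (5.54), Btg2 (1.56), Dusp4 (4.43), Dusp6 (3.48), Id2 (2.20) and Id3 (2.91), and so did the Kruppel-like factor Klf6 (3.83). So did genes of the primed epiblast and the streak, Fgf5 (7.26), Cer1 (6.04), Gsc (5.51), T (4.81), Lhx1 (2.31), Foxa2 (2.16), Foxa1 (3.10), Otx2 (2.85), Pou3f1 (1.96), Nodal (2.27), Lef1 (3.36) and Dnmt3b (3.16), and signalling genes, Sp5 (7.41), Wnt8a (5.45), Lgr5 (5.16), Dkk1 (3.14), Shh (5.82), Gli3 (2.19), Hhip (3.30), Jag1 (2.85), Bmp2 (3.48), Tgfb2 (3.73), Fst (4.33), Cyp26a1 (2.14) and Efnb2 (2.89). Nodal fell here, and Dnmt3b and Lef1 did not pass the test between EpiSC and mESM, so for these the positive value goes with a more negative NOD difference.

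Matrix and fibroblast genes with positive values were Postn (7.15), Col3a1 (5.06), Col6a3 (4.65), Mmp3 (5.08) and Mmp13 (5.13). Epithelial and lineage genes were Krt8 (3.78), Krt18 (3.43), Krt19 (1.23), Gata3 (3.01), Cdh10 (4.59), Nefm (3.60), Sox9 (5.76), Hbb-bh1 (3.47), Aqp1 (3.96) and Klf7 (1.88). The imprinted genes Mest and Nnat had 8.32 and 3.11, and Phlda2, which fell in EpiSC, had -1.30. The Y-linked genes Eif2s3y (6.86) and Kdm5d (2.17) were positive, and the Y-linked mismatch between the 129 ES cultures enters these values.

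Among genes of pluripotency, chromatin and cell division, positive values were those of Nr5a2 (3.25), Lin28a (1.96), Trim28 (1.68), Phc1 (1.02), Phc2 (2.11), Hmga2 (4.93), Mcm10 (1.95), Pole (1.62) and Cdk6 (3.85), of which Nr5a2, Trim28, Phc1, Mcm10 and Pole fell in EpiSC here, and of Atf5 (1.79) and Mcpt9 (6.11). Negative values were those of Gbx2 (-2.26), Rhox5 (-7.76), Apobec1 (-2.88), Trp53 (-2.52), Eda2r (-1.63), Msi1 (-1.89), Dusp9 (-2.89) and Efna3 (-2.22).

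Negative values outside those sets came from genes known from myeloid cells, Cd300lf (-7.38), Mrc1 (-7.12), Srgn (-6.95), Ctss (-6.57) and Ms4a6d (-5.98), from gut and secretory genes, Gkn2 (-7.95), Muc3 (-6.38) and Aqp8 (-5.97), and from Lama1 (-5.95), Itgb4 (-2.61), Apoe (-2.21), Dhcr7 (-1.50) and Oas2 (-2.35). With the normexp correction 29 of all genes kept an interaction past the threshold, so most of these calls ended under that setting.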

How the results depend on the processing

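The number of genes changed was 5707. It was between 4777 and 6071 with quantile normalization, another centring, the deposited table, another filter or none, the mean over probes, slide as a random block, the 7 non-NOD arrays or all 3 arrays of 129 ES as the control. It moved to 1544 with normexp, 2035 with slide as a fixed block, 10620 without the 2 arrays that stand apart, 2781 with the mESM arrays averaged to 1 sample, 13834 with only the 4 arrays compared, 3198 with epiESM as the control, and 2809 to 3222 when 1 of the 4 arrays was left out. A lone array left in a group was assumed to vary like the other groups. The 2904 unequal differences became 29 with normexp, 279 with slide fixed, 8200 without the 2 arrays, 1010 with mESM averaged and 1020 to 1330 with 1 array left out. The count of genes past 4-fold between passages went from 137 to 53 with normexp. Of the 5707 calls 48.6% were higher, and 64.3% of those with normexp. Of 270 named genes called, 178 kept the call with normexp, 149 with slide fixed, 204 with mESM averaged, 141 against epiESM and 201 to 214 with 1 array left out. Against epiESM these named genes changed sign: Adamts2 (-0.45), Atf5 (-0.14), Cd300lf (0.15), Cdkn2a (-1.88), Dhcr7 (0.99), Eif2s3y (-0.80), Grem1 (-0.39), Hoxc9 (-0.0035), Itga8 (-0.68), Jag1 (-0.14), Kdm5d (-0.048), Lrrk2 (-0.086), Mmp13 (-0.76), Mx2 (-1.27), Postn (-0.84), Prrx1 (-0.44), Slc2a1 (0.61), Snai1 (-0.34), Snai2 (-0.32), Sp5 (-0.86), Timp3 (-0.47), Trp53 (0.47), Wnt3 (-0.18) and Wnt8a (-2.59). No cause of these shifts was tested. No paired analysis was possible because the titles of the compared groups share no replicate numbers. Genes near background on these arrays have only bounds, and 2 arrays a group limit the precision.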
